A study of Mus musculus with 6 samples.

Results

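The 38 genes described here carry fatty acids into the muscle fibre, hold them in lipid droplets, bring them into the mitochondrion, oxidise them there, or control that programme. They were chosen by name from a fixed list, as the array probes whose accession leads to 1 of the 38 symbols. All 38 had a probe, among 36717 genes with a probe, and all 38 were well above background on each of the 6 arrays and were tested, among 20907 genes tested. The samples were total RNA of the gastrocnemius, a calf muscle, of male mice. The Young group held 3 samples taken at 13 weeks of age and the Old group 3 samples taken at 25 months. No treatment or allele is given for either age, and the strain is not given in the sources used here. Each sample was labelled with the dye Cy3 and hybridised to its own Agilent array. Samples carry a number within each age, but no source used here states whether the 3 of an age were different animals. The p-values therefore measure the spread among these samples alone, and some of it may be technical.

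Muscle takes up fatty acids that lipoprotein lipase frees from circulating triglyceride, and fatty acid binding proteins carry them through the cytosol. They are stored as triglyceride in droplets coated by perilipins, or are linked to carnitine, moved across the mitochondrial membranes and shortened in cycles of beta-oxidation, whose electrons pass through electron transfer flavoprotein to the respiratory chain. Nuclear receptors of the PPAR family, which bind fatty acids, switch on many of these genes, and several of them respond strongly to feeding and fasting.

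Levels below are log2 of the processed signal minus the array's 75th percentile, so 0 is the 75th percentile of that array. A level depends on the probe and is compared only between arrays, never between genes. Between 49.9% and 54.8% of the gene spots of an array were well above background and none was saturated, and the number of arrays limits the precision. One array, Old replicate 1, had control readings unlike the rest. Its spike-in slope was 0.840, against 0.925 to 0.941 on the others, and its negative controls averaged 61.3, against 51.9 to 55.1. All arrays shared 1 slide, with the Young arrays and Old replicate 1 in row 1 and Old replicates 2 and 3 in row 2. Muscle identity was as labelled. All 8 markers of fast and general muscle fibres were well above background on every array. They include Ckm, the muscle creatine kinase, and the fast myosin Myh4. The summed signal of the 8, in percent of the 75th percentile, was 543490 to 656770 on the Young arrays. On Old replicates 1 to 3 it was 434420, 596580 and 565440, so only Old replicate 1 lay outside the Young range. That array was the lowest of all for each of the 8 markers, and the cause was not tested.

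The comparison asked which fatty acid genes differ between the muscle of Old and Young mice. No member passed the test: 0 of 38 had a limma adjusted p under 0.05 (Benjamini-Hochberg over 20907 genes), where 0.254% of all genes did (0.0574% lower in Old muscle). The lowest adjusted p among the members was 0.277. At an unadjusted p under 0.05 there were 4 members (10.5%), against 14.4% of all genes: Angptl4 with a higher mean in Old muscle, where the share of all genes is 6.06%, and Cpt2, Etfdh and Pdk2 with a lower mean, where it is 8.38%. The arrays of the 2 ages did not overlap for 6 members, all lower in Old muscle (15.8%, against 13.9% of all genes; 7.93% of all genes did not overlap in the other direction and 21.8% in either). These were Fabp3, Fabp4, Cpt2, Eci2, Etfdh and Pdk2. All 3 shares lie near those of all genes. The signs leaned further. The Old mean was the lower one for 31 of 38 members, against 56.9% of all genes, and the median log2 difference (Old minus Young) was -0.25, against -0.06 over all genes.

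**Figure D1:**
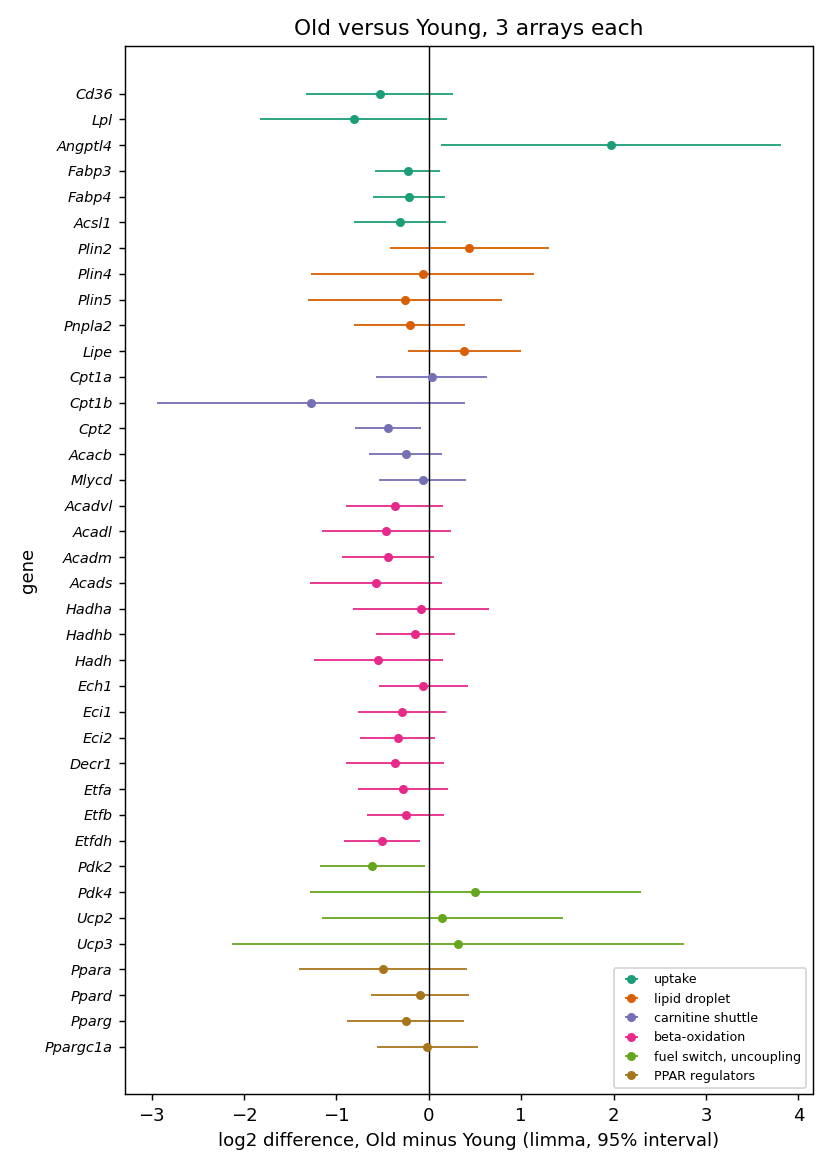
Log2 difference between Old and Young muscle for each of the 38 genes (horizontal axis, limma estimate with its 95% interval, 3 arrays per age), coloured by role. Points to the left of 0 have a lower mean in Old muscle, as 31 of 38 do, and only the intervals of Angptl4, Cpt2, Etfdh and Pdk2 leave out 0 before adjustment.

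Most of the lower means lay with Old replicates 2 and 3. Set against the mean of the Young arrays, the 38 members had a median of -0.40 on Old replicate 2 and -0.36 on Old replicate 3, with 31 of 38 negative on each, but of 0.0008 on Old replicate 1, with 19 of 38 negative. The carnitine genes were an exception, with 5 of 5 negative on Old replicate 1. By the probes tested, Cpt2 and Fabp3 had their lowest level on that array. The second probe of Cpt2 instead had its highest Old level there (0.35, against 0.08 and 0.04 on Old replicates 2 and 3). Old replicate 1 is also the only Old array in the slide row that holds the Young arrays, so with the row as a block the median was 0.0007, 19 of 38 were negative (56.4% of all genes) and 1 member reached an unadjusted p under 0.05 (11.9% of all genes). Row 2 holds no Young array, so for Old replicates 2 and 3 the row and the age cannot be told apart. Without Old replicate 1 the median was -0.39 and 13 members reached an unadjusted p under 0.05, 12 of them lower in Old muscle. The shares of all genes were then 18.1% in either direction, 10.9% lower and 7.23% higher. The Old mean was then lower for 32 of 38 members, against 54.2% of all genes. Still 0 passed the adjusted threshold, with a lowest adjusted p of 0.0955 for Lpl. On the Young side, replicate 2 was the highest of the 6 arrays for 24 of 38 members. Without it the median was -0.18, 25 of 38 were negative (65.8%, near the 58.2% of all genes) and 1 member reached an unadjusted p under 0.05 (9.49% of all genes). Leaving out Young replicate 1 or 3 left 2 such members, with 12.2% and 12% of all genes, and Old replicate 2 or 3 left 1, with 13.3% and 8.73%.

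**Figure D2:**
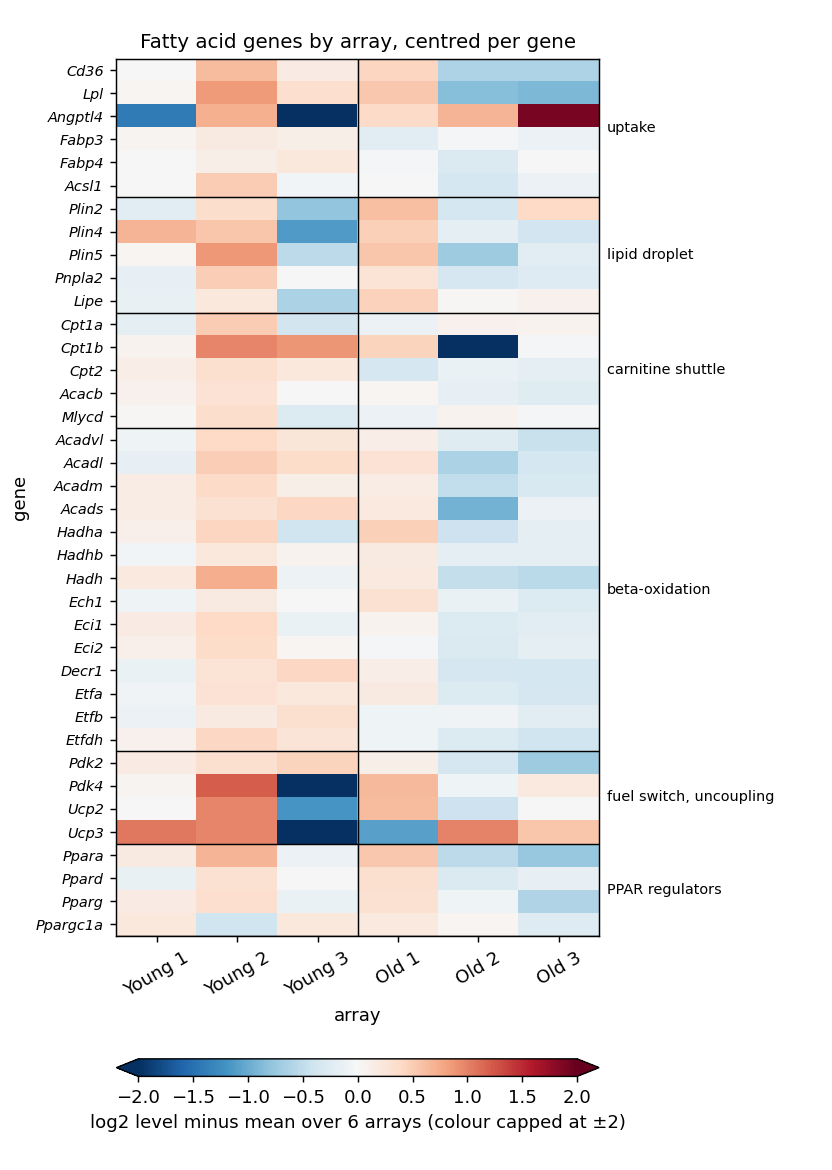
Level of each of the 38 genes (rows, by role) on each array (columns), as log2 level minus the gene's mean over the 6 arrays. Most rows are pale red on Young 2 and Old 1 and pale blue on Old 2 and Old 3. Darker blue cells include Pdk4, Ucp3, Angptl4, Ucp2 and Plin4 on Young 3 and Cpt1b on Old 2.

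Among the genes of uptake, Angptl4, which encodes a secreted inhibitor of lipoprotein lipase and is a target of the PPARs, had the highest positive difference of the 38 members. Its level was 0.90, 3.02 and 0.07 on Young replicates 1 to 3 and 2.70, 3.00 and 4.22 on Old replicates 1 to 3. Young replicate 2 thus lay among the Old arrays and the ages overlapped. The mean was 3.93-fold higher in Old muscle (log2 difference 1.98 ± 0.77, SE, limma adjusted p = 0.322). Single arrays moved this difference. Leaving out Young replicate 2 gave 2.82, leaving out Young replicate 3 gave 1.34, and the slide row as a block gave 1.37.

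Lpl, the lipase that Angptl4 inhibits, and Cd36, the fatty acid transporter of the cell surface, showed one pattern by the probes tested. Lpl was singled out after its values were seen. Its level was 6.80, 7.61 and 7.10 on Young replicates 1 to 3 and 7.30, 5.91 and 5.87 on Old replicates 1 to 3. The Cd36 level was 3.72, 4.36 and 3.88 on the Young arrays and 4.15, 3.10 and 3.11 on the Old arrays. By these probes, Old replicate 1 lay within the Young range in both genes, and Old replicates 2 and 3 lay below every Young array. The log2 differences were -0.81 ± 0.43 for Lpl (adjusted p = 0.429) and -0.53 ± 0.33 for Cd36 (adjusted p = 0.499), and without Old replicate 1 they were -1.28 (adjusted p = 0.0955) and -0.88 (adjusted p = 0.142), by limma. With the slide row as a block, which leaves Old replicate 1 against the Young arrays, they were 0.13 and 0.16. The other probe of Lpl gave -0.26 and did not keep this pattern. Its level was 5.39, 5.57 and 4.54 on the Young arrays and 5.90, 4.05 and 4.77 on the Old arrays. By that probe Old replicate 1 lay above every Young array, and Old replicate 3 lay within the Young range.

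The binding proteins had small differences with little spread. Fabp3, the fatty acid binding protein of heart and muscle fibres, lay at 8.22, 8.35 and 8.29 on the Young arrays and at 7.96, 8.15 and 8.06 on the Old arrays. Every Old array was below every Young array, by a log2 difference of -0.23 ± 0.15 (adjusted p = 0.511), and the other probe of Fabp3 gave -0.25. Fabp4, the form found in adipocytes and capillary endothelium, also separated the ages (-0.22 ± 0.16, adjusted p = 0.571), but only just. Its lowest Young level was 6.394, on Young replicate 1, and its highest Old level 6.390, on Old replicate 3. Acsl1, the ligase that activates long-chain fatty acids with coenzyme A, had -0.31 ± 0.21 by the probe tested and 0.13 by its dimmer probe. In bulk tissue, fewer cells of a type and less RNA per cell cannot be told apart.

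Markers of endothelial cells and adipocytes were read beside Lpl, Cd36 and Fabp4. Of the 6 endothelial markers, 3 had a lower mean in Old muscle, and their summed signal was 1559 to 1884 percent of the 75th percentile on the Young arrays and 1139 to 1373 on the Old arrays, without overlap. The differences ran from -0.79 ± 0.22 for Cdh5, the cadherin of endothelial junctions (limma adjusted p = 0.215), to 0.52 ± 0.57 for Pecam1, an adhesion molecule of the same junctions. Tek (0.46 ± 0.63) and Emcn (0.06 ± 0.29) also had a higher mean. Pecam1 (-0.42, -0.34 and -2.33 on Young replicates 1 to 3) and Tek (-1.50, -1.81 and -3.76) were far lower on Young replicate 3 than on the other Young arrays. Over the 17 alternative settings the difference ran from -0.13 to 1.08 for Pecam1 and from -0.24 to 0.92 for Tek. Cdh5 and Kdr were the brightest of the 6, so they weigh most in the sum. Of the 7 adipocyte markers 6 were tested, as Lep was above background on 1 Young array and no Old array. Their summed signal was 5791 to 6368 on the Young arrays, 6944 on Old replicate 1, and 4436 and 4274 on Old replicates 2 and 3. Of these 6, 4 had a lower and 2 a higher mean in Old muscle, none with an unadjusted p under 0.05. The differences ran from -0.48 ± 0.32 for Plin1, the perilipin of adipocytes, to 0.24 ± 0.39 for Cidea, a droplet protein. The part of either cell type in the values of Lpl, Cd36 and Fabp4 was not tested.

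The droplet genes showed no common direction. Plin2, the coat protein of droplets in most tissues, lay at 1.71, 2.28 and 1.14 on the Young arrays and at 2.54, 1.58 and 2.32 on the Old arrays. The ages overlapped, with a log2 difference of 0.44 ± 0.36 (adjusted p = 0.605). Plin5, which ties droplets to mitochondria, had -0.25 ± 0.44 and Plin4, a perilipin of muscle and fat, -0.06 ± 0.51. Of the lipases, Pnpla2, which takes the first fatty acid from triglyceride, had -0.21 ± 0.25, and Lipe, the hormone-sensitive lipase, 0.38 ± 0.26. None of the 5 reached an unadjusted p under 0.05 (lowest adjusted p = 0.525), and each interval held 0. All 5 were higher on Old replicate 1 than the Young mean, by a median of 0.45, while on Old replicate 2 the median was -0.23 and on Old replicate 3 it was -0.35.

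Of the genes that bring fatty acids into the mitochondrion, Cpt2, the carnitine palmitoyltransferase of the inner membrane, separated the ages. Its level was 5.18, 5.36 and 5.26 on Young replicates 1 to 3 and 4.71, 4.91 and 4.84 on Old replicates 1 to 3. Every Old array lay below every Young array, Old replicate 1 included. The mean was 1.36-fold lower in Old muscle (log2 difference -0.44 ± 0.15, limma adjusted p = 0.278). The second probe of Cpt2 gave -0.53, with 0.62, 0.76 and 0.68 on the Young arrays and 0.35, 0.08 and 0.04 on the Old arrays. Over the 17 alternative settings the difference stayed negative, between -0.59 and -0.28, and the unadjusted p was under 0.05 in 13.

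Cpt1b, the muscle form of the outer-membrane transferase and the step that malonyl-CoA restrains, had the largest negative difference. Its level was 5.57, 6.47 and 6.38 on the Young arrays and 5.95, 3.18 and 5.46 on the Old arrays. The difference of -1.28 ± 0.70 (adjusted p = 0.449) came mainly from Old replicate 2. Its second probe had 3.88, 4.52 and 4.09 on the Young arrays and 3.98, 3.60 and 3.62 on the Old arrays, a log2 difference of -0.43, so the 2 probes did not give the same size. Without Old replicate 2 the probe tested gave -0.43. Cpt1a, the form that prevails in liver, had 0.03 ± 0.25, and -0.46 by a probe that was above background on 2 arrays of each age. Acacb, the acetyl-CoA carboxylase that makes malonyl-CoA at mitochondria, had -0.25 ± 0.17, and Mlycd, the decarboxylase that removes it, -0.06 ± 0.20.

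All 14 genes of the beta-oxidation cycle and its electron transfer had a lower mean in Old muscle, with a median log2 difference of -0.35 and a range from -0.57 to -0.06. Quantile normalization turned the sign of Ech1 (0.02) and normexp background correction that of Hadha (0.03). With the slide row as a block Acadl, Ech1, Etfa, Hadha and Hadhb were positive, and leaving out single arrays gave up to 0.06 for Ech1 and 0.105 for Hadha. None of the 14 passed the adjusted test, and 1 reached an unadjusted p under 0.05. That was Etfdh, the dehydrogenase that passes electrons from electron transfer flavoprotein to ubiquinone. Its level was 6.14, 6.48 and 6.31 on the Young arrays and 5.97, 5.78 and 5.66 on the Old arrays. The ages did not overlap, and the mean was 1.42-fold lower in Old muscle (-0.51 ± 0.17, limma adjusted p = 0.277).

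The acyl-CoA dehydrogenases open the cycle, each for its own chain length. Acads, for short chains, had a log2 difference of -0.57 ± 0.30, Acadl, for long chains, -0.46 ± 0.29, Acadm, for medium chains, -0.44 ± 0.21, and Acadvl, for very long chains, -0.37 ± 0.22. In all 4 the ages overlapped through Old replicate 1, and their adjusted p ran from 0.398 to 0.508. Hadh, the short-chain hydroxyacyl-CoA dehydrogenase, had -0.55 ± 0.29. Hadha and Hadhb, which encode the alpha and beta chains of the trifunctional enzyme, had -0.09 ± 0.31 and -0.15 ± 0.18. Of the auxiliary enzymes that handle double bonds, Decr1, a dienoyl-CoA reductase, had -0.37 ± 0.22, Eci2 -0.34 ± 0.17, Eci1 -0.29 ± 0.20 and Ech1 -0.06 ± 0.20. Etfa and Etfb, the chains of electron transfer flavoprotein, had -0.28 ± 0.20 and -0.25 ± 0.18, and the 3 probes of Etfb ran from -0.38 to -0.25.

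The 14 genes differed between the Old arrays more than these means show. Relative to the Young mean their median was -0.46 on Old replicate 2 and -0.44 on Old replicate 3, with 14 of 14 negative on each, and -0.06 on Old replicate 1, with 9 of 14 negative. Old replicate 2 or 3 was the lowest of the 6 arrays for each of the 14, and Young replicate 2 was the highest for 9. Without Old replicate 1, 7 of the 14 reached an unadjusted p under 0.05, namely Acadvl, Acadl, Acadm, Acads, Hadh, Decr1 and Etfdh, with 18.1% of all genes in either direction and 10.9% lower. The lowest adjusted p was 0.167, for Acadm. Markers of slow fibres, which oxidise more fat than fast ones, were read beside them. All 6 had a lower mean in Old muscle. Their summed signal was 77518 to 104850 percent of the 75th percentile on the Young arrays. On Old replicates 1 to 3 it was 75582, 71235 and 47417. The 8 markers of fast and general fibres also all had a lower mean in Old muscle. Their median log2 difference was -0.17, against -0.59 for the 6 slow markers. Atp2a2 had the largest difference of the 6, -0.74 ± 0.22 (limma adjusted p = 0.231), while its second probe gave -0.21. Tnnt1, the slow troponin T, had -0.58 ± 0.21 (adjusted p = 0.297) and Myh7, the slow myosin, -0.66 ± 0.28 (adjusted p = 0.351). The part of fibre type in the beta-oxidation values was not tested.

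**Figure D3:**
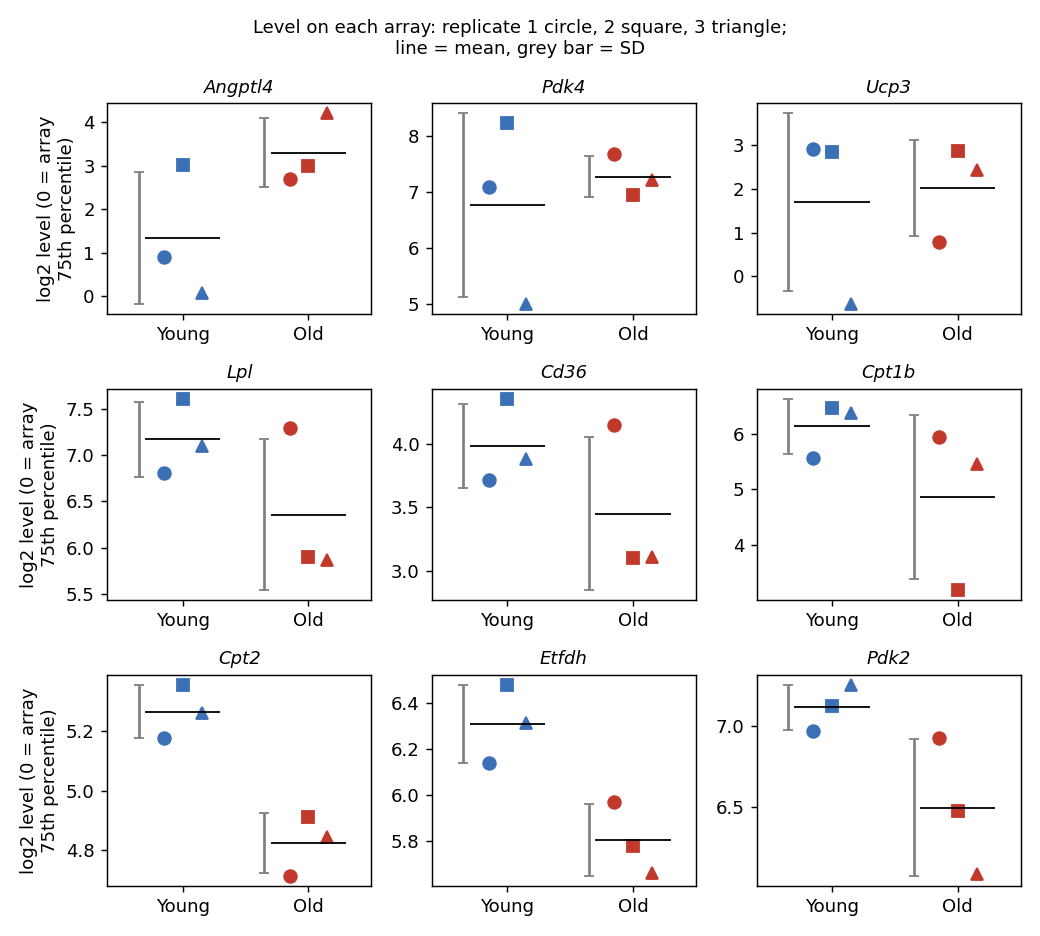
Level of 9 genes on each array (vertical axis, log2 relative to the array's 75th percentile, blue Young and red Old, symbol by replicate), with the mean and the SD over 3 arrays. Cpt2, Etfdh and Pdk2 separate the ages, Old replicate 1 lies with the Young arrays for Lpl and Cd36, and Young replicate 3 is far below the others for Pdk4 and Ucp3.

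Pyruvate dehydrogenase kinases turn off the entry of pyruvate into the citric acid cycle and so favour fat as fuel. Pdk2, the form expressed in most tissues, lay at 6.97, 7.12 and 7.25 on the Young arrays and at 6.93, 6.48 and 6.09 on the Old arrays. The ages did not overlap, though Old replicate 1 lay just under the lowest Young array. The mean was 1.53-fold lower in Old muscle (-0.61 ± 0.24, limma adjusted p = 0.321), and with the slide row as a block the difference was -0.18. Pdk4, the form induced by fasting, lay at 7.08, 8.23 and 4.998 on the Young arrays and at 7.67, 6.94 and 7.21 on the Old arrays. The spread within the Young group spanned the Old arrays on both sides, and the log2 difference of 0.50 ± 0.76 (adjusted p = 0.784) had a 95% interval from -1.29 to 2.30. Without Young replicate 3 it was -0.38.

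Ucp3, a mitochondrial carrier of the uncoupling protein family found in muscle, was singled out after its values were seen. Its level was 2.91, 2.83 and -0.64 on the Young arrays and 0.78, 2.86 and 2.42 on the Old arrays. Young replicate 3 was the lowest array and Old replicate 1 the next, as they were by the second probe, with 0.20 and 0.93. The log2 difference of 0.32 ± 1.03 was -0.18 by that probe and -0.85 without Young replicate 3. Ucp2, the widely expressed relative, had 0.15 ± 0.55 and was likewise lowest on Young replicate 3.

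A wide spread among the Young arrays was thus the main feature of several genes. It covered at least 1 log2 unit in 7 of 38 members, against 14.1% of all genes, and in 7 of these 7 Young replicate 3 was the lowest Young array. They were Ucp3, Pdk4, Angptl4, Ucp2, Plin4, Plin5 and Plin2. Over all genes with so wide a Young range, Young replicate 3 was the lowest in 45.4%. Of 60 other genes of the pathway, 15 had so wide a Young range, and Young replicate 3 was the lowest Young array in 13 of them. The widest range was that of Lpin1, a phosphatidate phosphatase and PPAR coactivator (5.36, 4.86 and 1.27 on Young replicates 1 to 3). In the remaining 2, G0s2, an inhibitor of the lipase Pnpla2 (1.72, 1.87 and 3.10), and Pdp1, a pyruvate dehydrogenase phosphatase (4.12, 4.03 and 5.196), Young replicate 3 was the highest Young array. This grouping was made after the values were seen and is a description of 1 array. The cause was not tested, and the feeding state of the animals is not given in the sources used here.

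The receptors and coactivator that control the programme did not pass the test either, with a lowest adjusted p of 0.575 over the 4. Ppargc1a, the coactivator PGC-1alpha that drives mitochondrial genes, lay at 3.43, 2.83 and 3.43 on the Young arrays and at 3.42, 3.27 and 2.96 on the Old arrays. The Old arrays lay inside the Young range, and the log2 difference of -0.02 ± 0.23 had a 95% interval from -0.57 to 0.53. Differences within that interval were not excluded. Ppara, the receptor that responds to fasting in liver and oxidative muscle, had -0.49 ± 0.38, and its 3 probes ran from -0.49 to -0.35. Ppard, the receptor that prevails in muscle, had -0.09 ± 0.22, and Pparg, that of adipocytes, -0.25 ± 0.27. Relative to the Young mean all 4 were higher on Old replicate 1 and lower on Old replicate 3.

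PPARs bind DNA with their partner RXR at repeats of the hexamer AGGTCA, and promoter stretches that hold it are shown for members from 4 roles as examples of this hexamer; the genes were not chosen by it. The RefSeq promoter table (GRCm38.p6) held 39 promoters of 33 members, read over the 250 bases before the start. The hexamer occurred on either strand in 9 of 39, from 8 members, that is 23.1%, against 4607 of 32851 promoters of that length (14%). The direct repeat of the hexamer with 1 base between its copies, DR1, occurred in 0 of 39 and in 11 of all, and TCAAGGTCA, the longer site of the ERR receptors, which contains the hexamer, in 0 of 39 and in 127 of all. Each stretch reads 5′ to 3′ on the gene's strand, with the hexamer, or its reverse complement TGACCT, in capitals. They lie at chr5:17836087-17836146 for Cd36 (minus strand), chr4:86670245-86670304 for Plin2 (minus strand), chr11:70015483-70015542 for Acadvl (minus strand) and chr7:100472815-100472979 for Ucp3 (plus strand), whose stretch holds 2 copies.
Cd36: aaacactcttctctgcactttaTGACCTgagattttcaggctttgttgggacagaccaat
Plin2: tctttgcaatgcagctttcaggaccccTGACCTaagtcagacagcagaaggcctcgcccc
Acadvl: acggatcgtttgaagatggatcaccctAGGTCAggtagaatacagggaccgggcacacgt
Ucp3: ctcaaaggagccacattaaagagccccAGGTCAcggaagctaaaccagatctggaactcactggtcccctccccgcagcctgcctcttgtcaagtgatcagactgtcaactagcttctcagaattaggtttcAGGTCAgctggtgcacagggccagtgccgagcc
A match is a description of the letters and not a bound site, and binding was not measured. The 4 genes did not move as one: the log2 differences were -0.53 for Cd36, 0.44 for Plin2, -0.37 for Acadvl and 0.32 for Ucp3.

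Of 60 other genes of the pathway, taken from lists of uptake, droplet, oxidation and regulation, all were tested and 0 passed the adjusted threshold in limma. At an unadjusted p under 0.05 there were 6 (10%), 1 higher and 5 lower in Old muscle, a share below the 14.4% of all genes. The median log2 difference was -0.19, against -0.06 over all genes. The higher one was Decr2, the dienoyl-CoA reductase of peroxisomes, at -0.52, -0.15 and -0.11 on the Young arrays and 0.61, 0.31 and 0.95 on the Old arrays. The ages did not overlap (0.88 ± 0.22, limma adjusted p = 0.181), Old replicate 1 included, and the unadjusted p was under 0.05 in 17 of 17 alternatives. Its mitochondrial counterpart Decr1 had -0.37 ± 0.22, as given above.

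The regulators held 4 of the 5 lower genes, that is 4 of 17 regulators (23.5%, against 8.38% of all genes). The lists were chosen with earlier results of these data known, so this share is a description and not a test. Rxra and Rxrb, which encode the DNA-binding partners of the PPARs, had -0.58 ± 0.17 (adjusted p = 0.231) and -0.42 ± 0.17 (adjusted p = 0.331). Esrra, the estrogen-related receptor that works with PGC-1alpha, had -0.51 ± 0.18 (adjusted p = 0.284) and Sirt3, the deacetylase of mitochondrial enzymes, -0.55 ± 0.17 (adjusted p = 0.236). By the probes tested, every Old array lay below every Young array in these 4 genes. The second probe of Rxra gave -0.36, with overlapping ages. The unadjusted limma p was under 0.05 in 15 of 17 alternatives for Rxra, 8 for Rxrb, 10 for Esrra and 16 for Sirt3. Of the 60 other pathway genes, 11 did not overlap and were lower in Old muscle (18.3%, against 13.9% of all genes). Another 3 did not overlap and were higher, where the share of all genes is 7.93%. Acsl3, a ligase at lipid droplets, had -0.86 ± 0.36 with overlapping ages. Differences of at least 1 without an unadjusted p under 0.05 were found for Slc27a3, of the fatty acid transport protein family (1.09 ± 0.51), Dgat2, which makes triglyceride (-1.04 ± 0.46), and Lpin1 (1.45 ± 0.999).

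Markers of blood and connective tissue cells were read in the same way. Of 7 macrophage markers, 6 had a higher mean in Old muscle, with a summed signal of 1985 to 2065 percent of the 75th percentile on the Young arrays and 2200 to 2826 on the Old arrays. The neutrophil markers S100a8 and S100a9 passed the adjusted test (limma adjusted p = 0.00604 for both). The summed signal of the 3 tested neutrophil markers was 49.3 to 101 on the Young arrays and 1621 to 2437 on the Old arrays. Retnlg, 1 of the 3, was above background on 0 Young and 3 Old arrays. It thus entered the test only through the Old arrays. The fourth, Ly6g, had no matched probe. The summed signal of the 3 erythroid markers was 14639 to 22554 on the Young arrays and 5271 to 11150 on the Old arrays. Of 4 fibro-adipogenic markers 2 had a higher mean in Old muscle, with sums of 3463 to 4284 and 4281 to 4814. Their part in the values of the fatty acid genes was not tested.

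**Figure D4:**
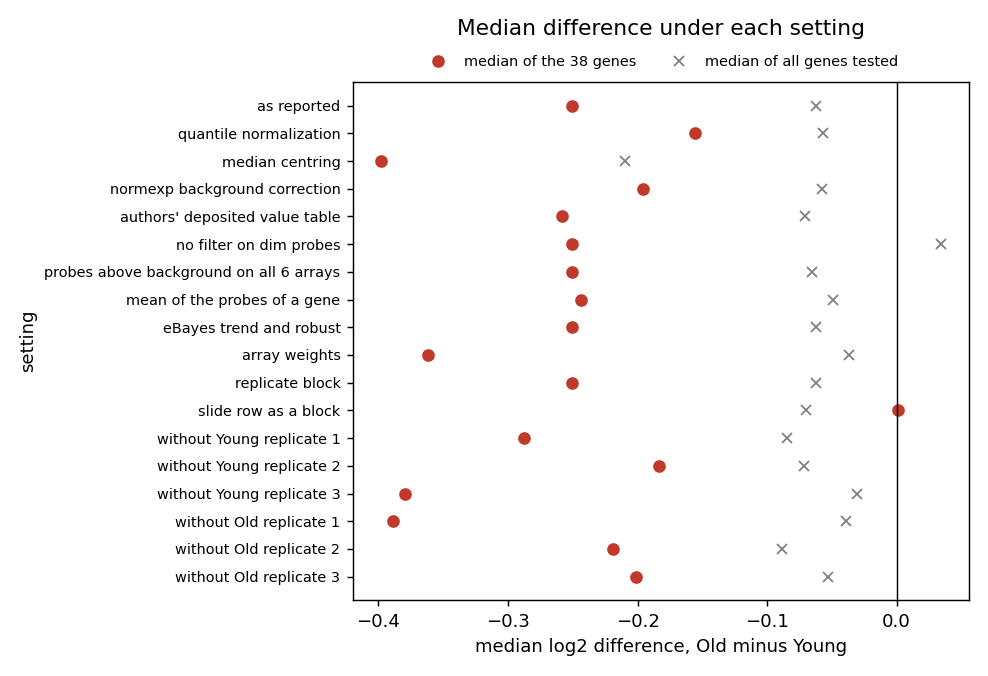
Median log2 difference between Old and Young muscle of the 38 genes (red points) and of all genes tested (grey crosses) under each processing setting (rows). The median of the 38 lies below that of all genes in each setting except with the slide row as a block, where it is 0.0007.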

How the data were processed

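The 6 single-colour arrays (3 per age) were read from the scanner output. Each deposited intensity is the processed signal of a spot, from which Feature Extraction 11.0.1.1 had removed background and spatial trend, per the file headers. The scanner protocol was GE1_1100_Jul11. In the submitters' processing notes the version is 9.5. Their deposited value table held the same intensity scaled to each array's 75th percentile. Spot flags, such as the call of well above background, are other values that the software deposited. Control and outlier spots were left out, log2 values were averaged per probe, and each array's 75th percentile over its probes was subtracted. Probes well above background on at least 3 arrays were kept (28013 of 55681), and the brightest kept probe, by its mean over the arrays, stood for a gene. Names came from accessions through the RefSeq table of GRCm38.p6 (28331 probes). The array grid names mm9, so no gene coordinates were used. The ages were compared by limma 3.58.1 in R 4.3.3 (lmFit, eBayes, two-sided, Benjamini-Hochberg), tested on simulated data. An exact permutation test of 3 against 3 cannot go below 0.1 and was not used. Figures used matplotlib 3.10.9 in Python 3.11.15.

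Values of each array are given for members with an unadjusted p under 0.05, a difference of at least 1, or ages that do not overlap with a difference of at least 0.5, and for Cpt1b, Cd36, Fabp3, Pdk4, Ppargc1a and Plin2. Lists, members and settings were chosen with earlier results of these data known. There were 17 alternatives. Normexp used each spot's median signal. In the authors' table, values under 0.5 were set to 0.5 before log2.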

Additional observations from a re-analysis of the deposited data

How the results depend on the processing

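Under all 17 alternatives 0 of 38 members passed limma's adjusted threshold, with a lowest adjusted p of 0.0955 (Lpl without Old replicate 1). The count of members at an unadjusted p under 0.05, 4 as reported, was 2 with quantile normalization (14.5% of all genes), 13 with median centring (14.9%), 11 with array weights (20.2%), 1 with the replicate block (11%) and 1 under the slide row block (11.9%), beside 14.4% of all genes as reported. It ran from 1 to 13 when single arrays were left out (13 without Old replicate 1, 2 without Young replicate 1 or 3, and 1 without each of the others). Median centring moved the median of all genes from -0.06 to -0.21. The median of the members, -0.25, became 0.000749 under the slide row block and ran from -0.39 to -0.18 without single arrays. Of all genes, 53 passed as reported, 8 with no filter on dim probes, 35 with probes above background on all 6 arrays, 181 with array weights, 5 with the replicate block and from 1 (without Old replicate 3) to 186 (without Old replicate 1) when single arrays were left out. The lower ones in Old muscle were 12 of 53 as reported, 16 of 42 with median centring, 23 of 61 with normexp and 19 of 41 under the slide row block. Deviations of same-numbered arrays from the mean of their age correlated at -0.06, -0.27 and 0.03. Those of differently numbered arrays ran from -0.21 to 0.35. These correlations cannot settle whether same-numbered samples of the 2 ages belong together. The cause of the shifts between settings was not tested.

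Of 646 member values under the alternatives 52 had the opposite sign, in 19 members. The slide row block gave Acadl 0.0648, Cd36 0.162, Cpt1a -0.0955, Ech1 0.28, Etfa 0.0449, Hadha 0.433, Hadhb 0.11, Lpl 0.128, Plin4 0.45, Plin5 0.43, Pnpla2 0.173, Ppara 0.293, Ppard 0.272, Pparg 0.182, Ppargc1a 0.183 and Ucp3 -0.922. Quantile normalization gave Ech1 0.0166 and Plin4 0.0477. Median centring gave Cpt1a -0.118 and Ucp2 -0.0014. Normexp gave Cpt1a -0.0229, Hadha 0.0349 and Mlycd 0.106. The mean of the probes gave Cpt1a -0.216. Array weights gave Cpt1a -0.0422, Pdk4 -0.11, Ucp2 -0.31 and Ucp3 -0.0745. When single arrays were left out, the members whose sign turned ran as follows: Cpt1a from -0.148 to 0.29, Ech1 from -0.232 to 0.0616, Hadha from -0.346 to 0.105, Mlycd from -0.214 to 0.092, Pdk4 from -0.382 to 1.23, Plin4 from -0.645 to 0.258, Plin5 from -0.596 to 0.117, Ppard from -0.275 to 0.0336, Ppargc1a from -0.217 to 0.109, Ucp2 from -0.407 to 0.669 and Ucp3 from -0.854 to 0.936.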
